A study of Mus musculus with 6 samples.

Results

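The crystallins are the structural proteins of the lens, and 10 alpha, beta and gamma crystallin genes (Cryaa, Cryab, Cryba1, Crybb1, Crybb3, Crygb, Crygc, Crygd, Cryge and Crygs) were followed on arrays of embryonic day 9.5 mouse head ectoderm with and without the lysine acetyltransferases CBP and p300. Every array probe annotated to these genes was used, which gave 13 of the 45281 probes and 10 of the 19057 annotated genes. The probes were read on 6 Illumina mouse whole-genome bead arrays, 3 of wild type (WT) lens placode and 3 of CBP/p300-/- surface ectoderm (KO). Placode-region tissue was cut by laser from sections of embryos of mixed FVB and 129 background, its RNA was pooled from 3 embryos per genotype, and each pool was amplified in triplicate. The 3 arrays of a genotype were therefore repeat amplifications of 1 pool by the sample labels, and each p-value below measured only the spread between amplifications in a comparison of 2 pools. By the methods of the study, both alleles of CBP and of p300 were floxed in the dissected embryos, and only the KO embryos carried Pax6-Cre, a transgene driven by the ocular enhancer and P0 promoter of Pax6 that is active in lens progenitor cells. The methods text names a later stage for the dissection than the labels do, the study elsewhere calls the arrays biological replicates, and the labels were followed here. The tissue name also differed with the genotype, so that genotype and tissue name cannot be told apart.

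Alpha crystallins (Cryaa, Cryab) are small heat shock proteins that keep other proteins soluble, and Cryab is also made in muscle and other tissues. Beta and gamma crystallins share a common fold of Greek key motifs and pack densely in lens fibre cells, where they give the lens its refractive index. In the mouse the lens placode thickens from head surface ectoderm where the optic vesicle touches it, and the crystallin genes are switched on in sequence from this stage to fibre differentiation, with the gamma genes best known as products of fibre cells.

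Crygd and Cryge, the crystallins on which the results turn, are next to each other on mouse chromosome 1 in a row of gamma genes that runs Cryge, Crygd, Crygc, Crygb and Cryga with no other protein-coding gene between them. The 100 bases before the annotated start of the 4 members in this row, all on the minus strand, are shown 5′ to 3′ to set the genes that were above background beside Crygb, which was not (RefSeq sequence, build GRCm38.p6). Capitals mark 2 motifs searched on both strands, TATATA, the core of a TATA box, and CTTTTGTG, a run of letters seen in the first 3 sequences, and in Crygb overlapping copies of TATATA are joined.
Cryge, chr1:65051164-65051263: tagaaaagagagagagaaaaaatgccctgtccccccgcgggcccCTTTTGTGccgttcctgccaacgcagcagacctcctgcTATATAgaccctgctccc
Crygd, chr1:65063441-65063540: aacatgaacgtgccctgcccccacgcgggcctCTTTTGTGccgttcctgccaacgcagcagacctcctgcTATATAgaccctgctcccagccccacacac
Crygc, chr1:65073533-65073632: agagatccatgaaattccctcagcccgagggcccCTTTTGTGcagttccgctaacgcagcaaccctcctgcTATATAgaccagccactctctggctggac
Crygb, chr1:65082291-65082390: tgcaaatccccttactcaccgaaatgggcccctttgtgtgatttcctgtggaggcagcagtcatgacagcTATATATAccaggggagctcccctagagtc

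Cryge and Crygd were the most alike of these promoters. Over the 60 bases that end with TATATA, Cryge and Crygd matched at 57 positions (95.0% of the aligned columns), Cryge and Crygc at 83.6% and Cryge and Crygb at 64.1%. TATATA was present in the promoters of 6 of the 6 genes Cryga to Crygf and in 5.67% of all 32851 RefSeq promoters of 300 bases. CTTTTGTG was present in 5 of these 6 genes, not in Crygb, and in 1.37% of all promoters. It was picked from the sequences of Cryge, Crygd and Crygc, so its presence there was fixed by the choice. Of the other 5 crystallins with a promoter entry (Cryaa, Cryba1, Crybb1, Crybb3 and Crygs), 1 held TATATA (Cryaa) and 0 held CTTTTGTG. Crygf, whose promoter matched that of Cryge at 93.3% and which lies elsewhere on chromosome 1, was not above background on any array, and neither was Cryga. A motif match describes the letters of a sequence and was not tested as a binding site.

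At this stage 2 of the 10 crystallins, Crygd and Cryge, were above background on all 3 WT arrays, and 0 of 10 were above background on all 3 KO arrays. A probe was counted as above background where its detection p, the share of negative control probes at least as bright, was under 0.01. Over all probes, 21.6% passed on all 3 WT arrays and 26.1% on all 3 KO arrays. Shares over all probes count probes, whereas a crystallin was counted where any of its probes passed. By probe, 2 of the 13 crystallin probes passed on all 3 WT arrays. In total 6 crystallins passed on at least 1 WT array (Cryab, Cryba1, Crybb3, Crygc, Crygd and Cryge) and 3 on at least 1 KO array (Cryab, Cryba1 and Cryge). Over all probes, 50.7% passed on at least 1 of the 6 arrays. Cryaa, Crybb1, Crygb and Crygs did not pass on any array, which sets an upper limit on their signal and does not show that the transcripts were absent. The lowest intensity that passed differed between arrays, from 106 to 225 units in WT and from 120 to 146 in KO, and was highest on WT replicate 1, whose median probe intensity of 141 stood above the 85.6 to 95.5 of the other 5 arrays.

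**Figure D1:**
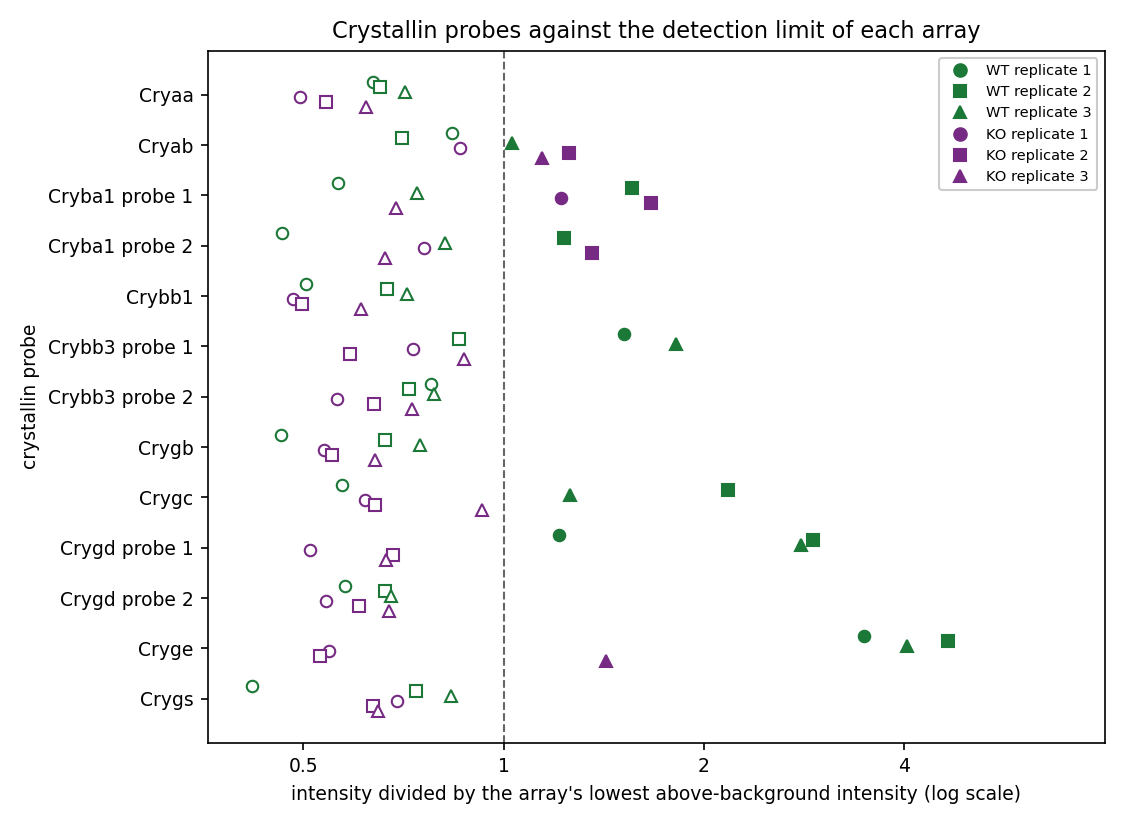
Intensity of each of the 13 crystallin probes on each array, divided by the lowest above-background intensity of that array (log axis, dashed line at 1), with WT in green and KO in purple, filled where the detection p was under 0.01. Cryge and Crygd probe 1 are the probes with all 3 WT arrays filled, at 1.21 to 4.65 times the limit, and the rows for Cryaa, Crybb1, Crygb and Crygs hold open points only.

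Crygd, which encodes gammaD crystallin, fell in KO, by at least 4.03-fold on the background-corrected scale and by 3.54-fold between the uncorrected values. The intensity of its detected probe (ILMN_2884655) was 272, 316 and 297 units in the WT replicates and 74.8, 90.3 and 80.2 in the KO replicates. All 3 WT readings were above the limit of their own array and all 3 KO readings were below it, so the groups did not overlap. The standard error over the beads of 1 array was 8.62 to 11.3 units in WT and 3.24 to 5.73 in KO. It describes repeat beads on an array and does not measure the spread between amplifications or embryos. After background correction and quantile normalization the WT mean was 7.81 ± 0.47 on the log2 scale (SD, n = 3) and the KO mean 4.80 ± 0.18. The difference of -3.02 ± 0.33 (SE, log2 intensity) had an adjusted p of 0.0271 in limma, fitted across all 12697 probes that were above background on all 3 arrays of at least 1 genotype. Because no KO array was above background, the corrected fold was taken against the detection limit of the KO arrays. It is a lower bound only on that scale, as are the other folds given as at least a value, and the uncorrected intensities, which still hold the background, gave smaller folds for each such gene that was called. In tissue that is not sorted, fewer cells that express a gene and less RNA per cell cannot be told apart.

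The Crygd call was close to the threshold. Leaving out any 1 array brought the adjusted p to 0.0656 to 0.115 with a difference of -3.35 to -2.83, and 0 probes of the whole array then passed. Without background correction the difference was -1.82 (adjusted p = 0.0623), and the call was also lost with a normexp offset of 50 (adjusted p = 0.0521) and with no filter on dim probes (adjusted p = 0.0524).

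A second probe for the same Crygd transcript (ILMN_2772482) gave no signal. It read 130, 71.9 and 71.7 units in WT and 79.0, 80.3 and 80.9 in KO, did not pass on any array, and differed by 0.02 on the log2 scale. The 2 Crygd probes thus disagreed. Where on the transcript each probe lies, and whether it can bind the near-identical transcripts of other gamma crystallins, was not analysed here.

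Cryge, which encodes gammaE crystallin, had the larger fitted difference and missed the threshold. It was bright in WT, at 783, 503 and 427 units, and dim in KO, at 79.8, 70.1 and 172. The WT readings were 3.48 to 4.65 times the limit of their arrays, whereas KO replicates 1 and 2 were below the limit and KO replicate 3 was detected at 1.43 times its limit. Every KO array was nonetheless below every WT array, as was the case for 10.2% of the probes tested. On the log2 scale the means were 8.92 ± 0.38 in WT and 5.26 ± 1.01 in KO (SD, n = 3). The difference was -3.65 ± 0.55 (SE), with an adjusted p of 0.0533 in limma. This was 12.6-fold on the fitted scale and 5.61-fold between the uncorrected values. Leaving out KO replicate 3, the array with the signal, gave -4.21 (adjusted p = 0.0857). With median scaling in place of quantile normalization Cryge passed (-3.52, adjusted p = 0.0488).

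**Figure D2:**
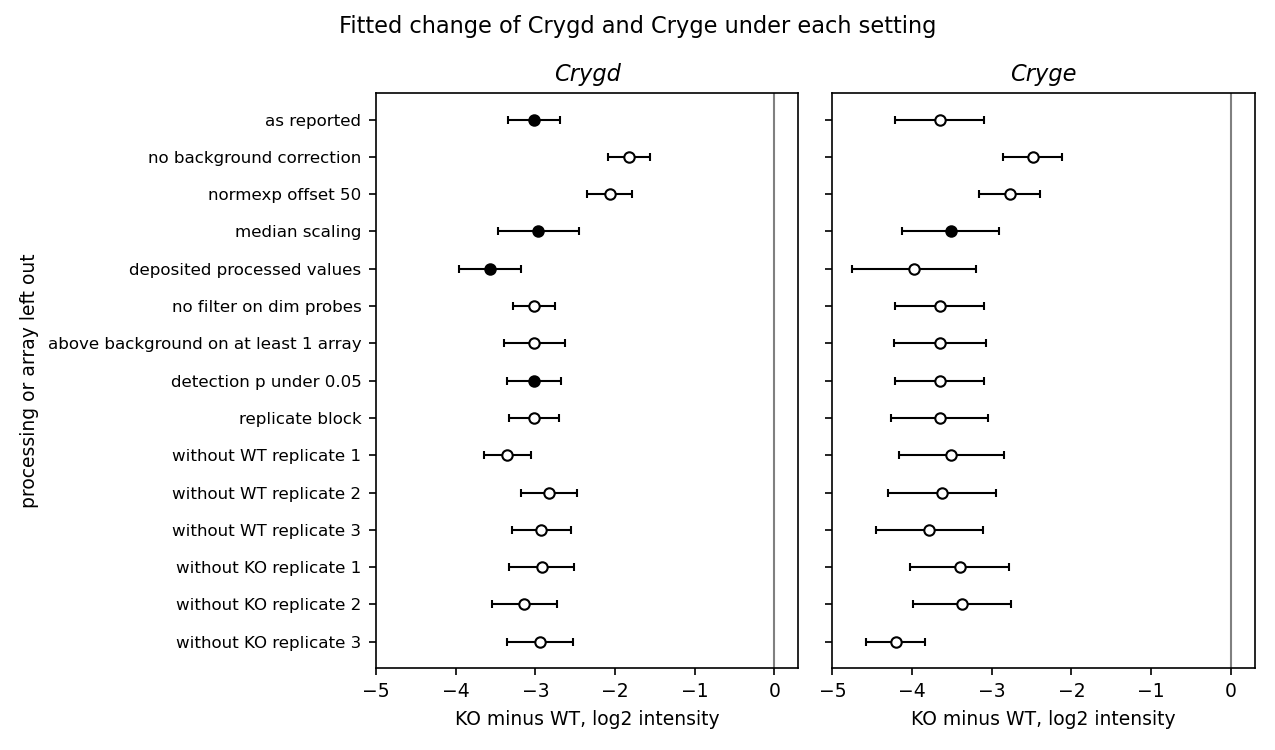
Difference between KO and WT (log2 intensity, bars are the SE) of Crygd and Cryge as reported, under 8 other ways of processing and without each array, filled where the adjusted p was under 0.05. All values lie below 0, between -3.57 and -1.82 for Crygd and between -4.21 and -2.49 for Cryge, and few are filled. The filters and the replicate block leave the value itself unchanged.

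On KO replicate 3 Cryge was detected and Crygd was not. By size of decrease Cryge ranked 9 and Crygd 36 among the 12697 probes tested, and by p-value Crygd ranked 38 and Cryge 125. Of these probes 0.425% (54) were called lower in KO and 0.417% (53) higher, called meaning an adjusted p under 0.05 and a difference of at least 1 on the log2 scale, and median scaling gave 29 and 63. Of the 10 crystallins, 2 reached the test, both through their WT arrays alone, and 1 of these was called lower. Of all probes, 0.186% were above background on all 3 WT arrays and no KO array, as Crygd was, and 0.696% on all 3 WT arrays and at most 1 KO array, which takes in Cryge. The median difference over the 7141 genes tested was 0.03.

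Crygc, the next gene along and the maker of gammaC crystallin, was above background on 2 WT arrays and on no KO array. It read 128, 235 and 133 units in WT and 90.5, 84.6 and 112 in KO. WT replicates 2 and 3 passed, and WT replicate 1, which had the highest limit, did not. The groups overlapped on the normalized scale because WT replicate 1 (4.88) was below KO replicates 1 and 3 (4.92 and 5.35). The WT mean set against the KO limit gave at least 1.46-fold, with 2 of 3 WT arrays measured, and when all probes were fitted with no filter its adjusted p was 0.850. Crygb, beyond Crygc, was flat, with normalized values of 4.66 to 4.77 in WT and 4.68 to 4.71 in KO, all below background.

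**Figure D3:**
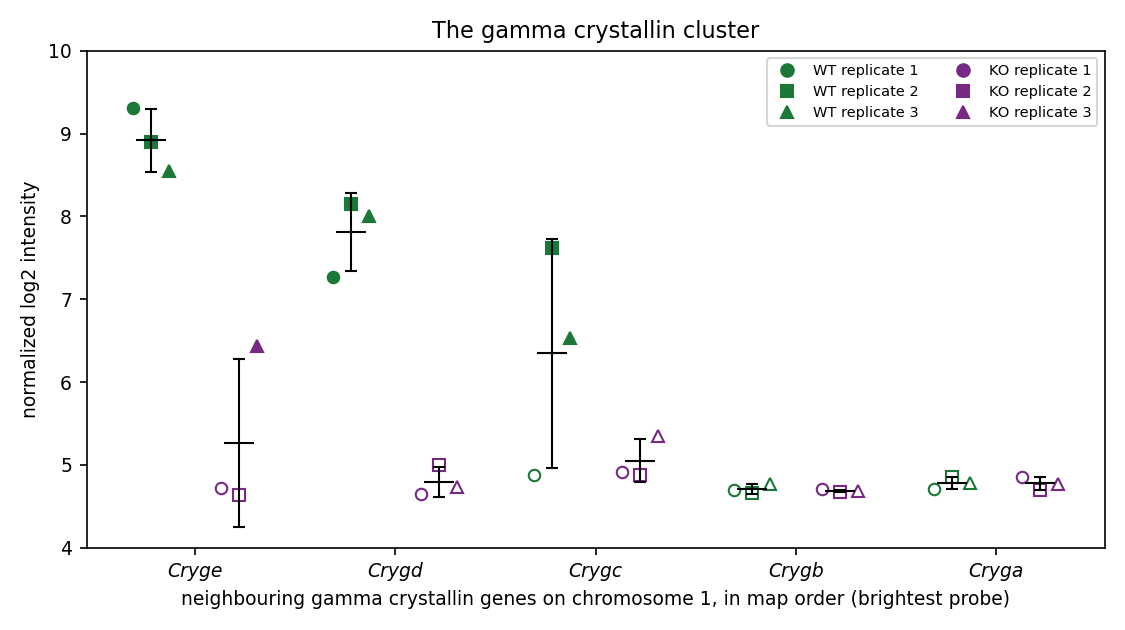
Normalized log2 intensity of the 5 neighbouring gamma crystallin genes of chromosome 1 in map order, 1 point per array (WT green, KO purple, filled where above background), with the mean and SD of each genotype as black bars. Cryge and Crygd have filled WT points well above the KO points, Crygc has 2 filled WT points, and Crygb and Cryga have none.

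Crygs, which encodes gammaS crystallin, maps to chromosome 16 and is known chiefly as a product of later fibre cells, was below background throughout. Its readings were 80.0 to 94.1 units in WT and 78.0 to 101 in KO, and the groups overlapped.

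Among the beta crystallins, at a detection p under 0.01, Crybb3 was detected in WT alone and Cryba1 in both genotypes. Crybb3, which lies beside Crybb2 on chromosome 5, read 341, 92.7 and 192 units in WT and 107, 77.7 and 105 in KO with the better of its 2 probes (ILMN_2720107). WT replicates 1 and 3 were above background, WT replicate 2 was not, at 0.856 of its limit, and no KO array was. At a detection p under 0.05, KO replicates 1 and 3 also passed (0.0289 and 0.0299), and WT replicate 2 still did not (0.0524). Normalized values were 7.78, 5.33 and 7.28 in WT and 5.23, 4.75 and 5.22 in KO. WT replicate 2 stood just above the highest KO array. The groups did not overlap on this scale, as for 8% of all probes, but they overlapped when each intensity was divided by its array's limit. The bound was at least 1.99-fold, with 2 of 3 WT arrays measured, and the adjusted p with no filter was 0.689. The other Crybb3 probe was below background on all 6 arrays and differed by -0.27. Of all probes, 6.06% were above background on at least 1 WT array and no KO array, the pattern of Crygc, Crybb3 and Crygd.

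Cryba1, which encodes betaA3 and betaA1 crystallin from 1 transcript, had 2 probes that gave the same picture. The brighter probe read 127, 169 and 78.6 units in WT and 178, 220 and 82.7 in KO, and was above background on WT replicate 2 and on KO replicates 1 and 2. The other read 104, 133 and 86.6 in WT and 111, 180 and 79.9 in KO, and passed on WT replicate 2 and KO replicate 2. The differences of 0.62 and 0.19 on the log2 scale were smaller than the SD within either genotype, which was 0.94 to 1.25, and the groups overlapped. Crybb1, which lies beside Cryba4, was below background on all arrays at 72.3 to 113 units in WT and 65.8 to 73.4 in KO.

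Of the alpha crystallins, Cryab was detected in both genotypes and Cryaa in neither. Cryab read 188, 76.2 and 109 units in WT and 126, 166 and 137 in KO, and was above background on WT replicate 3 and on KO replicates 2 and 3. At a detection p under 0.05 it passed on all 3 KO arrays, the crystallin to do so in KO at that threshold, and on 2 of 3 WT arrays. Normalized values were 5.99, 4.74 and 6.01 in WT and 5.64, 6.46 and 5.85 in KO, a difference of 0.40 with overlapping groups and an adjusted p of 0.866 with no filter. Cryaa, often taken as a mark of the committed lens, read 143, 70.7 and 75.2 units in WT and 72.1, 71.6 and 74.6 in KO. The high WT reading came from replicate 1 and was 0.637 of that array's limit. A change of Cryaa, Crybb1, Crygb or Crygs that stayed under the limit of each array was thus not detectable. For the probes left out of the limma fit, an exact two-sided permutation test of 3 against 3 arrays could not go below p = 0.1, and none was run.

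**Figure D4:**
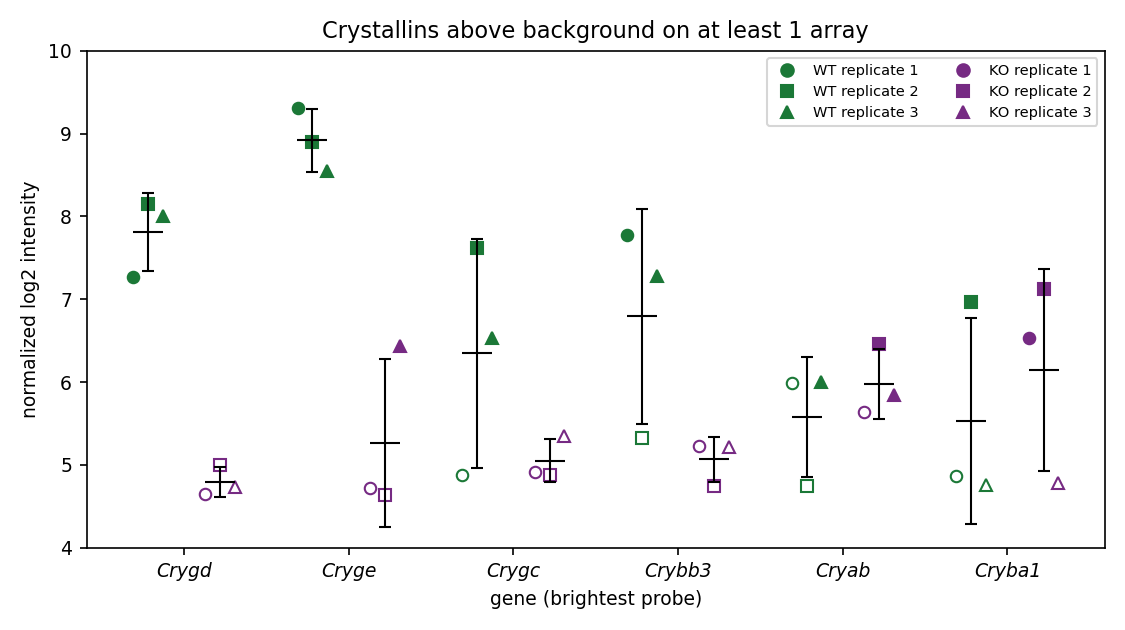
Normalized log2 intensity of the 6 crystallins above background on at least 1 array, brightest probe of each, 1 point per array (WT green, KO purple, filled where above background), with mean and SD as black bars. WT and KO points are apart for Crygd and Cryge, nearly meet for Crybb3, and overlap for Crygc, Cryab and Cryba1.

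The 6 further crystallins on the array (Cryba2, Cryba4, Crybb2, Cryga, Crygf and Crygn) gave no gene to the test. Cryba4 was above background on WT replicate 1 alone, with normalized values of 8.13, 5.46 and 5.32 in WT and 5.10 to 5.21 in KO. Crygn, a gamma crystallin known also from retina, passed on 2 WT arrays and 1 KO array with 1 of its 3 probes. Over all 16 crystallins, 8 were above background on at least 1 array.

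Pitx3 and Foxe3, factors that act upstream of crystallin genes in the lens, were also called lower in KO. Of 20 listed, 19 were on the array and 12 were tested, 8 with a negative and 4 with a positive difference, and 2 were called lower and 0 higher, beside 0.425% and 0.417% of all probes tested. The shares count probes, whereas a factor was counted as called with any of its probes. The median was -0.71 over the 12 tested, against 0.03 over all genes tested, and -0.05 over the 19 with no filter, against -0.03 over all genes. Pitx3 and Foxe3 entered the test through their WT arrays alone. Pitx3, a homeodomain factor of the early lens, read 8.13, 8.72 and 8.16 on the log2 scale in WT and 4.75, 4.75 and 4.86 in KO. It was below background on all KO arrays and fell at least 5.80-fold on the background-corrected scale and 4.65-fold without correction (-3.55 ± 0.28, SE, limma adjusted p = 0.0201). Foxe3, a forkhead factor needed in lens epithelium, read 6.89, 7.58 and 8.02 in WT and 4.67, 4.72 and 4.98 in KO and fell at least 3.24-fold on the corrected scale and 3.04-fold without correction (-2.71 ± 0.36, adjusted p = 0.0404). For both genes the WT and KO values were apart, as for Crygd.

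Maf, a leucine zipper factor that binds crystallin promoters and enhancers, read 9.60, 9.02 and 9.07 in WT and 7.32, 5.15 and 7.02 in KO. The difference of -2.73 ± 0.61 had an adjusted p of 0.115 and was not called, although the groups did not overlap. Sox2, a partner of Pax6 on crystallin enhancers in the chick, differed by -1.74 ± 0.27 (adjusted p = 0.0552) with its brighter probe and by 0.41 (adjusted p = 0.769) with the other. Prox1, a homeodomain factor of fibre cells, differed by -1.59 ± 0.53 (adjusted p = 0.238). Pax6, above background on all arrays, was not called, at -0.20 (adjusted p = 0.81) with its brightest probe and -0.54 (adjusted p = 0.42) with the other. Six3 was not called either, at 0.15 (adjusted p = 0.92) with its brightest probe. With any 1 array left out, Pitx3 had an adjusted p of 0.0581 to 0.0929 and Foxe3 of 0.0693 to 0.138. The Foxe3 call was also lost without background correction (adjusted p = 0.0902), with an offset of 50 (0.0808), with median scaling (0.0566), with no filter (0.0944), with a detection p under 0.05 (0.0602) and with probes above background on at least 1 array (0.114), the last of which also ended the Pitx3 call (0.0698).

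Of 16 listed genes of lens fibre cells, 14 were on the array and 3 were tested, 1 with a negative and 2 with a positive difference (median 1.19, and -0.02 over the 14 with no filter). Jag1, a Notch ligand needed for secondary fibre cells, was called lower, at 9.98, 9.44 and 9.39 in WT against 6.36, 6.04 and 7.03 in KO (-3.13 ± 0.36, limma adjusted p = 0.0323), and without 1 array its adjusted p was 0.0721 to 0.113. The Jag1 call was also lost with no filter on dim probes (limma adjusted p = 0.075). It was lost too with probes above background on at least 1 array (0.0923) and with the replicate number as a block (0.207). Caprin2, an RNA-binding protein of fibre cells, read 1.85 (adjusted p = 0.207) and the intermediate filament gene Vim 1.19 (adjusted p = 0.340), and neither was called. Mip, the major membrane channel of fibre cells, was above background on KO replicates 1 and 2 and on no WT array, and the cadherin gene Cdh2 on WT replicates 1 and 3 and on no KO array, and neither was tested. Bfsp2, a beaded filament protein, passed on 1 array of each genotype, and 7 of the 14 genes passed on none.

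Small heat shock genes, the relatives of the alpha crystallins, showed no call. Of 6 genes 2 were tested. Hspb6 read 5.11, 5.09 and 5.72 in WT and 7.94, 8.07 and 6.02 in KO, above background on all KO arrays and on no WT array, at least 2.26-fold higher in KO with an adjusted p of 0.199. Hspb8, bright on all arrays, differed by -0.64 (adjusted p = 0.310). Hspb2, which is next to Cryab on chromosome 9, was below background throughout. Other listed genes carry a crystallin name but are not counted among the alpha, beta and gamma crystallins, such as the enzyme-related Cryz and Crym. Of these, 6 were on the array, 4 were tested and 0 were called. Crym differed by -0.80 (adjusted p = 0.381), Cryz by -0.79 (adjusted p = 0.593) and Cryzl1 by -1.20 (adjusted p = 0.545), the last with a second probe of opposite sign (1.23, adjusted p = 0.652).

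By likeness of pattern, the gene closest to Crygd over the 6 arrays was Rnaseh2b (Pearson r = 0.996), followed by Hapln1 (0.99) and Slc15a3 (0.989), out of 7140 genes compared. Rnaseh2b, a subunit of ribonuclease H2, differed by -0.91 (adjusted p = 0.173). For Cryge the closest were Tfam (0.995), Cxcl12 (0.989) and Jag1 (0.989). Hapln1, which encodes a link protein of the extracellular matrix, differed by -4.04 (adjusted p = 0.0228), Slc15a3, a peptide transporter, by -2.32 (adjusted p = 0.0359), the chemokine gene Cxcl12 by -2.60 (adjusted p = 0.0489) and Tfam, a mitochondrial transcription factor, by -2.28 (adjusted p = 0.0798). The 6 points share their 2 pools and the step between the genotypes, and the correlations are given as a description. Genes picked by a pattern that holds this step will tend to differ between the genotypes, so these differences and adjusted p-values are no separate result. Hapln1, Slc15a3 and Tfam also entered the test through their WT arrays alone.

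Other facts of the arrays bear on these values. Between 12212 and 17195 probes per array were above background, and the typical probe was read by 43 to 44 beads (median). All 9 listed markers of lens and head ectoderm were above background on all WT arrays and 7 on all KO arrays, with a summed normalized intensity of 16880 to 18630 in WT and 13090 to 14670 in KO. The exceptions in KO were Foxe3 and Pitx3, the 2 called lower and already given above. Of the 9, 8 had a negative and 1 a positive difference (median -0.39). Cdh1, the brightest, differed by -0.39 (limma adjusted p = 0.53) and Epcam by -0.04 (limma adjusted p = 0.96). The 6 blood markers summed to 5703 to 7460 in WT and 13680 to 14260 in KO, and all 5 that were tested were higher in the mean of KO, with 0 called. The 7 markers of mesenchyme and neural crest summed to 1593 to 2724 in WT and 2272 to 2387 in KO, with Twist1 below background throughout. Of these, 5 of the 6 tested were higher in the mean of KO (median 2.54), and Pdgfra read -2.21 (limma adjusted p = 0.0871). The 5 higher genes entered the test through their KO arrays alone, which favours a higher KO mean. With no filter the median over the 7 genes was 2.35. Alx4 was called higher with its brightest probe (4.05, adjusted p = 0.0489). The other Alx4 probes, which were not tested, differed by 0.18 and 0.19 with overlapping groups. Markers of optic vesicle, to which the placode adheres, summed to 823 to 4731 in WT and 1413 to 2162 in KO, with Six6 below background. The highest WT sum came mostly from Mitf on WT replicate 2, at 12.12 against 9.23 and 9.15 on the other WT arrays. Of the 3 tested, Mitf differed by -0.10, Rax by 0.51 and Otx2 by 1.51, with 0 called. Otx2 was above background on all 3 KO arrays and no WT array. Endothelial markers summed to 151 to 220 in WT and 372 to 916 in KO, with Pecam1, Kdr and Cdh5 below background. Among them only Cldn5 was tested, above background on all 3 KO arrays and no WT array (3.67, limma adjusted p = 0.071). The median difference of the endothelial list with no filter was -0.11. Macrophage markers summed to 129 to 772 in WT and 120 to 121 in KO, with Csf1r and Tyrobp below background, and muscle markers to 210 to 389 in WT and 203 to 216 in KO, with Des above background on 2 arrays of each genotype, Myl7 on 1 KO array and Actc1, Myl2, Myod1 and Myog on none. The part of these markers in the crystallin differences was not tested. The deleted genes did not check the labels, since it is not known whether their probes lie in the deleted exons. Crebbp, which encodes CBP, read 7.20, 7.61 and 7.01 in WT and 7.17, 8.47 and 6.75 in KO on the log2 scale with 1 of its tested probes. Ep300, which encodes p300, differed by 0.18 (adjusted p = 0.963) and 2.60 (adjusted p = 0.0738) with its 2 tested probes.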

How the data were processed

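Per the labels, total RNA of laser-dissected tissue was amplified with the NuGEN WT-Ovation Pico system, biotin labelled and hybridized to 6 arrays. The authors deposited non-normalized values from GenomeStudio: a mean bead intensity per probe, a detection p-value, the number of beads and the bead standard error. They also deposited a processed table of background-subtracted, normalized intensity, used here only as an alternative; the methods name cubic spline normalization. No fold changes or tests of the authors were used, and 0 columns of values were left unmapped.

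Intensity was background corrected with normexp from the detection p-value (offset 16), log2 transformed and quantile normalized in limma 3.58.1 (R 4.3.3). A probe entered the fit where the 3 arrays of either genotype all had a detection p under 0.01 (12697 of 45281). These were fitted with lmFit and eBayes, WT against KO, with Benjamini-Hochberg adjustment over all probes kept. A call needed an adjusted p under 0.05 and a log2 difference of at least 1. The fit had 4 residual and 2.15 prior degrees of freedom. A probe below background on all arrays of a genotype was given a bound, for which each dimmer array contributed its lowest above-background value, or the probe's own value where that was higher, and their mean was subtracted from that of the other genotype. No 2 arrays held identical values. Precision is limited by the single RNA pool per genotype, whose spread between embryos the 3 arrays do not measure.

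Gene names came from the platform annotation, in which 34885 probes had 1 symbol, 18 several and 10378 none. Map order and promoters came from RefSeq (GRCm38.p6), with 9 of 10 crystallins matched, and promoters were compared by global alignment (match 1, mismatch -1, gap -2). The genes named were all 10 crystallins with every probe, the genes called in each list and up to 3 further genes per list with the largest change in the brightest probe tested, plus the 3 genes of most similar pattern. Genes named as detected or undetected on single arrays, single marker genes, and Pax6 and Six3 among the factors, were added after their values were seen. The members and lists were chosen with earlier results of these data known. The fit was tested on simulated data. Alternatives were the background correction, its offset, the scaling, the processed values, the filters, the fold minimum, the replicate number as a block and leaving out each array.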

Additional observations from a re-analysis of the deposited data

How the results depend on the processing

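Crygd and Cryge were lower in KO under all 9 other settings and with each array left out. Crygd differed by -3.57 to -1.82 and Cryge by -4.21 to -2.49, and no direction turned among the 15 genes with fitted values. The filters, the replicate block and the fold minimum leave the fitted difference unchanged, so under these no direction could turn. Only the background correction, its offset, the scaling, the processed values and leaving out an array could move it. The calls were less stable. The 54 probes lower and 53 higher in KO became 17 and 19 without background correction, 26 and 27 with a normexp offset of 50, 21 and 24 with a detection p under 0.05, and 2 and 4 with probes above background on at least 1 array. Median scaling gave 29 lower, and no filter on dim probes gave 30 higher. With the replicate number as a block both counts were 0 (772 and 1042 at an unadjusted p under 0.05), and with any 1 array left out they ranged from 0 to 0 (675 to 1222 lower and 1033 to 1188 higher at an unadjusted p under 0.05, limma). The number of crystallins called lower, 1 as reported, was 0 without background correction, with an offset of 50, with no filter, with probes above background on at least 1 array, with the replicate block (Crygd adjusted p = 0.207) and with any 1 array left out (0 to 0), and 2 with median scaling. The causes were not tested. The same numbers in the 2 genotypes do not pair the arrays, since deviations of same-numbered arrays correlated at -0.026 to 0.001. The number of crystallins above background in WT was 6 with at least 1 array in place of all 3. In KO it was 3 by that rule, 1 (Cryab) with a detection p under 0.05, and 0 to 1 with 1 KO array left out. Signals under the limit of 106 to 225 units per array could not be measured, and WT replicate 1, with the highest limit, could miss signals that the other arrays show.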
